A study of Mus musculus with 36 samples.

Results

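Day 6 BV+SC+ cells, which carry 2 active reporters, mVenus driven by Blimp1 (BV) and ECFP driven by Stella (SC), were compared with EpiSCs, the primed stem cells that such cells are induced from. The comparison rests on 5 of the 36 samples of the series, chosen by their labels alone: 2 bulk RNA-seq libraries of BV+SC+ cells and 3 of EpiSCs. The study follows EpiSCs as BMP4 moves them from primed towards naive pluripotency through a state like that of primordial germ cells (PGCs). Its single-cell, chromatin and other RNA-seq samples were not used here.

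EpiSCs were kept in N2B27 with 20 ng/ml Activin A, 15 ng/ml bFGF and 1 µM XAV939, a tankyrase inhibitor that holds canonical WNT signalling low. For BV+SC+ cells, EpiSCs with both reporters spent 3 days in iCD1, a medium that holds bFGF, LIF, CHIR99021, lithium and vitamin C, with BMP4 at 5 to 10 ng/ml, 2.5 µM of the DOT1L inhibitor EPZ5676 and 1 µM of the EZH2 inhibitor EPZ6438. The protocol that the labels give for both libraries goes on with another 3 days in N2B27 with 1 µM PD0325901, a MEK inhibitor, 3 µM CHIR99021, a GSK3 inhibitor, and vitamin C, before cells positive for both reporters were sorted. The sample descriptions do not match it: that of replicate 1 names 2iJi and that of replicate 2 names GK15, a different medium. The paper tested the latter as another choice for the second stage. It also describes a JAK inhibitor added in that stage, and its usual medium for the stage holds LIF. Whether replicate 2 saw the MEK and GSK3 inhibitors is therefore uncertain. Whether 2iJi refers to a JAK inhibitor, and whether either library saw LIF in the second stage, is uncertain too. Medium and replicate cannot be told apart. Treatment, medium, time and sorting differ together between the groups and cannot be told apart either. The descriptions of EpiSC replicates 1, 2 and 3 carry different suffixes (a number for replicate 1, then P14 and P16), which are not explained. Whether the EpiSC libraries carry the reporters, and whether replicates came from separate cultures, is not stated, so the p-values measure only the spread between these libraries.

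PGCs are the founders of sperm and eggs and arise from the epiblast in response to BMP4. *Prdm1* (Blimp1), *Prdm14* and *Tfap2c* are the core transcription factors of their specification, which silences somatic genes and brings back part of the naive network, and *Dppa3* (Stella) is their classical marker. EpiSCs stand for the epiblast after implantation: they live on Nodal and FGF signals, express primed genes such as *Fgf5* and *Otx2*, and keep many germline promoters under DNA methylation. Naive cells of the epiblast before implantation rest on LIF signalling and on a network around *Esrrb*, *Tfcp2l1* and *Klf2*.

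The EpiSC libraries held 2444211 to 3070115 expected counts and the BV+SC+ libraries 14778809 and 18099059. Counts were tested with edgeR, and a gene was called at a Benjamini-Hochberg adjusted p under 0.05 and a fold change over 2; all p-values below are these adjusted ones. Of 11792 genes tested, 1983 (16.8%) had higher and 2028 (17.2%) lower expression in BV+SC+ cells, and the median log2 fold change of all genes was 0.05. These shares of all genes are the measure for the list counts below. The change was over 4-fold at 970 of the higher and 1016 of the lower genes, and over 16-fold at 468 and 267. Many of the higher genes were barely read in EpiSCs: 429 had at most 3 counts in every EpiSC library, and 180 of these had none. Where a group had no count, the fold is given as a lower bound against 3 counts per library, and where no library had more than 3 counts, as the ratio of pooled counts with its exact 95% counting interval, which covers counting error only. The BV+SC+ libraries differed from each other by over 2-fold at 501 of the 4011 called genes (12.5%), and the EpiSC libraries differed so at 328 (8.18%). These 2 shares are not comparable, since the first is from 2 deeper libraries and the second a range over 3 shallower ones. Calling also favours genes with little spread within groups. In bulk RNA, fewer cells that express a gene and less of its RNA per cell cannot be told apart.

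**Figure D1:**
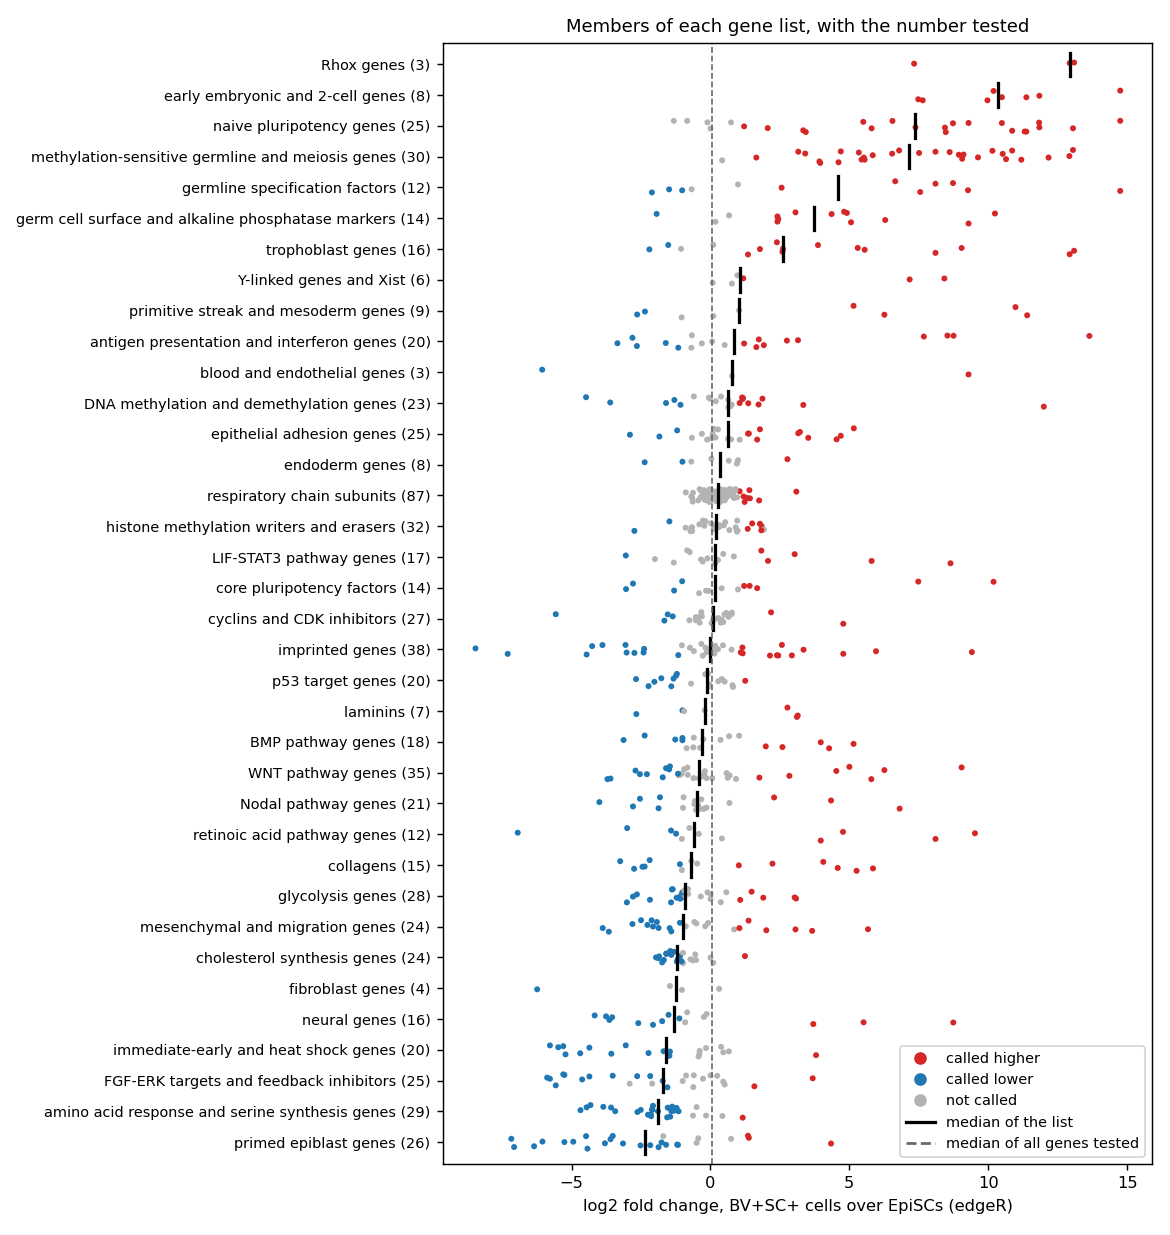
Each dot is a tested gene of the list named on the vertical axis, placed at its log2 fold change in BV+SC+ cells over EpiSCs. Red dots were called higher, blue dots lower, grey dots not called, black bars are list medians and the dashed line is the median of all genes, 0.05. The list of Rhox genes, with 3 tested and a median of 12.93, lies furthest to the right. The early embryonic, naive, and germline and meiosis lists follow, and the list of primed epiblast genes, at -2.34, lies furthest to the left.

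The reporter genes are what the sort selected, so their levels are given here with no test, and where they enter counts or the order of changes below, the sort has fixed their direction. *Dppa3* had no count in the EpiSC libraries and stood at 1160 and 1200 TPM (a level per length, set so that each library has the same sum) in the BV+SC+ libraries, and *Prdm1* went from 0.54, 0.24 and 0.29 TPM to 128 TPM in both. Neither *Tfap2c* nor *Esrrb* was sorted for. *Tfap2c* had 0.68, 0.71 and 0.86 TPM in EpiSCs and 168 and 213 TPM in BV+SC+ cells, a ratio of 281 (148 to 616) with adjusted p = 1.42e-06. *Esrrb*, a nuclear receptor of the naive network, had 0.72, 0.6 and 1.28 TPM in EpiSCs and 273 and 287 TPM in BV+SC+ cells, a log2 fold change of 8.47 ± 0.169 (SE, adjusted p = 4.47e-07). *Tfap2c* and *Esrrb* went with the labels of both groups: they were read in the BV+SC+ libraries and at most at trace level in EpiSCs. *Dppa3* and *Prdm1* say nothing on this, since the sort selected for them. The EpiSC markers *Fgf5*, *Pou3f1* and *Dnmt3b* stood at 89.2 TPM or more in each EpiSC library. Of the other EpiSC markers, *Otx2* was not called and *Pou5f1* was high in both groups, as given below.

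Of 15 germline specification factors, 12 passed the filter on low counts, with 7 called higher and 3 lower (16.8% and 17.2% of all genes). In 4 of the 7 no EpiSC library had more than 3 counts, so at least these passed the filter through BV+SC+ cells alone. With at least 10 counts asked of every library, 2 of 6 were higher and 2 lower. *Prdm14*, a PR domain factor that works beside *Prdm1*, had 0.25, 0 and 0 TPM in EpiSCs and 40.3 and 40.9 TPM in BV+SC+ cells (adjusted p = 9.32e-06). *Nanos3*, an RNA-binding protein that PGCs need to survive, was listed at 0 in EpiSCs and at 43.4 and 21.5 TPM in BV+SC+ cells, at least 8.73-fold higher. *Dnd1*, an RNA-binding partner of the NANOS proteins, rose from 0.37, 0.33 and 1.85 TPM to 107 and 88.9 TPM, by 6.65 ± 0.382 on the log2 scale and by 7.72 without EpiSC replicate 3. The groups did not overlap at any of these factors. *Elavl2* rose by 2.56 ± 0.267. Not every gene of the list rose. *Ybx2*, a germ cell RNA-binding protein, fell from 42.6, 42.5 and 34.8 TPM to 8.33 and 13.8 TPM. The list also holds *Tcf7l1*, a WNT repressor, which fell by 1.49 ± 0.218 and was no longer called after a correction for GC content. *Sox17* was at most at 0.95 TPM in any library and was not tested. *Sall4* stood at 90.3, 74.4 and 100 TPM in EpiSCs and 160 and 191 TPM in BV+SC+ cells, a log2 fold change of 0.99 that was under the 2-fold threshold.

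Surface and enzyme markers of germ cells went the same way at 11 of 14 tested genes, with 1 lower. In 3 of the 14 no EpiSC library had more than 3 counts. With at least 10 counts asked of every library, 5 of 8 were higher and 1 lower. *Kit*, the receptor for stem cell factor, rose from 6.24, 6.34 and 7.27 TPM to 146 and 170 TPM (4.91 ± 0.184). *Alpl*, the tissue-nonspecific alkaline phosphatase by which PGCs are stained, rose from 10.6, 11.2 and 15.4 TPM to 326 and 273 TPM (4.81 ± 0.135). Each EpiSC value lay far below each BV+SC+ value for both. The interferon-induced membrane proteins of PGCs moved unequally: *Ifitm3* rose from 28.6, 25.7 and 25.8 TPM to 747 and 988 TPM (5.06 ± 0.197), *Ifitm1* from 3.09, 0 and 0 TPM to 1590 and 2130 TPM, a ratio of 1280 (438 to 6200), whereas *Ifitm2* was high in both, at 719 to 812 TPM and 1230 and 1130 TPM, and was not called. *Itgb3* rose from at most 0.43 TPM to 15.1 and 18.8 TPM, *Pecam1* from at most 0.84 TPM to 115 and 144 TPM, and *Itga6*, another integrin, fell by 1.94 ± 0.164. *Epcam* did not pass, at 192 to 213 TPM against 181 and 252 TPM.

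The list of germline and meiosis genes known to be held silent by DNA methylation counts 46 genes with a row. Of these, 30 passed the filter, 29 were called higher and none lower. For 23 of them no EpiSC library had more than 3 counts, so they passed through BV+SC+ cells alone and could differ in this direction only, and the count is a description. The remaining 16 genes were too low in both groups to test. With at least 10 counts asked of every library, only 1 of the 30 was left, and it was not called. Levels in BV+SC+ cells were modest: the whole list summed to 13.7, 21.1 and 22.4 TPM in EpiSCs and to 726 and 975 TPM in BV+SC+ cells.

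Among its members, *Dazl*, an RNA-binding protein that licenses germ cells for sexual development, was listed at 0 in EpiSCs and at 65.2 and 79.4 TPM in BV+SC+ cells, at least 109-fold higher. *Tdrd12*, of the piRNA pathway that silences transposons, went from 1.25, 0 and 1.1 TPM to 136 and 151 TPM, a ratio of 187 (86.0 to 511), and *Piwil2*, an Argonaute of that pathway, from 0.37, 0.13 and 0.78 TPM to 11.1 and 20.2 TPM. *Zfp42* (Rex1), a zinc finger gene of naive cells as well, was at least 120-fold higher. Genes of meiotic entry and recombination were read too, at lower levels: *Stra8* at 4.17 and 7.27 TPM, *Dmc1* at 6.03 and 7.79 TPM and *Smc1b* at 9.57 and 21.4 TPM, each listed at 0 in EpiSCs. *Ddx4* (Vasa), an RNA helicase of later germ cells, was at 0, 0.47 and 0 TPM in EpiSCs and 9.01 and 9.44 TPM in BV+SC+ cells, a ratio of 61.1 (16.8 to 506). Not every gene of the list was gained, since *Tdrd7* did not pass the test, *Tdrd6* was no higher than 0.17 TPM in any library, and *Piwil1*, *Piwil4*, *Tdrd1* and *Tdrd9* stayed under 1 TPM in both BV+SC+ libraries.

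Promoters of this list were read from RefSeq on GRCm38.p6, 250 bases before to 50 after the start, for 29 of the 30 tested genes. The E-box CACGTG, which MGA and MAX recognise when they repress germline genes in other cells, and the E2F-type motif TTCCCGC, bound by E2F6, were searched on both strands (the E-box reads the same on both, and TTCCCGC appears as GCGGGAA on the other). Letters alone are a description and say nothing of whether a factor was bound. The E-box was in 10 of the 29 windows (34.5%) and the E2F-type motif in 9 (31.0%), 15 held at least 1 of them and 4 held both. For comparison, 10.7% and 9.02% of the windows of all tested genes and 7.24% and 4.66% of all 27025 windows held them, and the shares were 12.5% and 8.25% among genes called higher. The median number of CpG dinucleotides was 18 in the windows of the list, 22 in those of all tested genes and 7 in all windows. Of the motifs taken as a contrast, the ETS-type CCGGAA was in 17.2% of the list and 29.7% of tested genes, and the SOX-type CATTGT in 6.9% and 6.6%, both on either strand. Windows of 4 members, shown for where the E-box (and in *Hormad1* and *Ddx4* the E2F-type motif) lies, are at chr1:166238695-166238994 (minus strand) for *Mael*, chr3:95559427-95559726 (plus) for *Hormad1*, chr6:49395289-49395588 (plus) for *Stk31* and chr13:112652261-112652560 (minus) for *Ddx4*, with the motifs in capitals:
Mael: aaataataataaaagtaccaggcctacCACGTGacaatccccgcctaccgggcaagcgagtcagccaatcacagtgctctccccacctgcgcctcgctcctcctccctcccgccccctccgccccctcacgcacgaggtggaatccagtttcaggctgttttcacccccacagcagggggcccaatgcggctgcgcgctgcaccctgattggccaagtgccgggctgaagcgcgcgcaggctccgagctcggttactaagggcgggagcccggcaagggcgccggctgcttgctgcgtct
Hormad1: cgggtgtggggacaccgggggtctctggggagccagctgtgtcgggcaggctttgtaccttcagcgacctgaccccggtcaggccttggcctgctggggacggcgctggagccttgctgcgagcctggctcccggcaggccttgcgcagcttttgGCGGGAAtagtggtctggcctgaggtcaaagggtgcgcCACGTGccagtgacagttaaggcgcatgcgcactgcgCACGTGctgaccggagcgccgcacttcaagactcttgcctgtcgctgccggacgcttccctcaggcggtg
Stk31: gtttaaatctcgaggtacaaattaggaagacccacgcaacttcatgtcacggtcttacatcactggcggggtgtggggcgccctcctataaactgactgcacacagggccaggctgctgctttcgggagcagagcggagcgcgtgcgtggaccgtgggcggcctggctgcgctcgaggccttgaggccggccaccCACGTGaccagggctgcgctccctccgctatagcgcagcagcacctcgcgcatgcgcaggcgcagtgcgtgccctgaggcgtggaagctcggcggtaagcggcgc
Ddx4: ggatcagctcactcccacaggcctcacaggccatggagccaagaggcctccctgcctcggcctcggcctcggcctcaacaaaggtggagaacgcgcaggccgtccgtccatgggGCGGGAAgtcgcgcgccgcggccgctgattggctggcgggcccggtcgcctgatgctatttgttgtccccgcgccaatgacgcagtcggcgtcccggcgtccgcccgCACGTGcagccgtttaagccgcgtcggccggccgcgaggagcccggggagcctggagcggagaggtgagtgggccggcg

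*Mael*, of the piRNA machinery, was at 8.77 and 10.2 TPM in BV+SC+ cells, *Hormad1*, of the meiotic chromosome axis, at 18.1 and 30.3 TPM, and *Stk31*, a kinase with a tudor domain, at 13.9 and 19.3 TPM, all listed at 0 in EpiSCs. The lower bounds of their fold were 6.9 for *Mael* and 26.3 for *Stk31*.

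**Figure D2:**
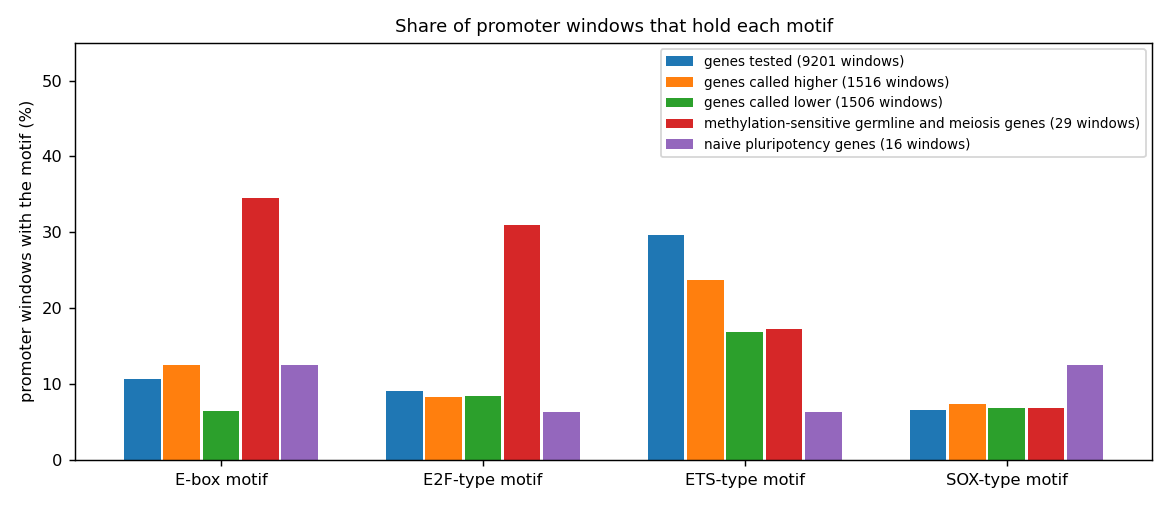
Bars give the percentage of promoter windows (300 bases) that hold each motif, for all tested genes, genes called higher or lower, and the germline and meiosis and naive lists, with the number of windows in the legend. The E-box and E2F-type bars of the germline list, 34.5% and 31.0%, stand above those of all tested genes, 10.7% and 9.02%, and its ETS-type bar below.

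Naive pluripotency genes were gained broadly: of 25 tested, 20 were called higher and none lower. The median log2 fold change of 7.38 was 6.87 without BV+SC+ replicate 1 and 7.78 without replicate 2. Of the 25, at least the 13 with at most 3 counts in every EpiSC library could differ in this direction only. With at least 10 counts asked of every library, 9 were tested, 4 were higher and none lower. Only 11 are on no other list, 10 of them higher. The others, with the sorted *Dppa3*, also count on germline or other lists. *Tfcp2l1*, a factor downstream of LIF, rose from 1.08, 0.79 and 0.32 TPM to 42 and 38.4 TPM (5.80 ± 0.269). *Nr5a2*, a nuclear receptor, went from 0, 0 and 0.32 TPM to 62.2 and 46.8 TPM, a ratio of 366 (101 to 3030), *Nr0b1* (Dax1) from 0 to 71.4 and 46.9 TPM, and *Tcl1*, an AKT coactivator, from 0 to 92.4 and 90.3 TPM. The highest levels were those of *Dppa5a*, an RNA-binding protein, at 2570 and 3360 TPM, and of *Tdh*, the threonine dehydrogenase that feeds one-carbon metabolism in naive cells, at 807 and 641 TPM, with at most 3.01 and 1.05 TPM in EpiSCs. *Fbxo15* rose from 4.31, 1.49 and 1.2 TPM to 165 and 269 TPM.

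The Krüppel-like factors of the naive network differed among themselves. *Klf2* had 48.9, 6.31 and 6.3 TPM in EpiSCs and 227 and 208 TPM in BV+SC+ cells (3.43 ± 0.664, and 5.18 without EpiSC replicate 1, which stood high). *Klf5* rose from 24.4, 14.1 and 14.2 TPM to 51.4 and 88 TPM (log2 fold change 2.06). *Klf4* was at 40.4, 7.55 and 4.17 TPM in EpiSCs and 2.85 and 9.73 TPM in BV+SC+ cells, so the groups overlapped, and its log2 fold change of -1.32 (adjusted p = 0.27) became 0.45 without EpiSC replicate 1. *Fgf4* stood at 17.4 to 21.4 TPM and 17.7 and 18.4 TPM, *Stat3* at 10.3 to 11.3 TPM and 5.15 and 15.3 TPM, and neither passed.

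Core factors that both states use moved less. *Pou5f1* (Oct4) stood at 2060, 2060 and 2080 TPM in EpiSCs and at 1510 and 1450 TPM in BV+SC+ cells, without overlap, and its log2 fold change of -0.41 (adjusted p = 0.00284) was under the fold threshold. *Sox2* rose from 172, 102 and 127 TPM to 345 and 470 TPM (1.68 ± 0.229) and *Nanog* from 105, 187 and 144 TPM to 311 and 329 TPM (1.21 ± 0.203). *Tdgf1* (Cripto), the coreceptor of Nodal, fell from 694, 674 and 666 TPM to 78.2 and 107 TPM (-2.79 ± 0.163). *Lin28b*, which blocks maturation of let-7, fell from 48.7 to 51.8 TPM to 7.06 and 4.53 TPM. *Dppa4* and *Dppa2*, chromatin proteins of early embryos and germ cells, were at most at 0.67 TPM in EpiSCs and at 290 and 471 TPM and 64.2 and 105 TPM in BV+SC+ cells. In all, 5 of the 14 core factors were higher (35.7%) and 4 lower (28.6%), against 16.8% and 17.2% of all genes. Their median log2 fold change of 0.17 was 0.3 without BV+SC+ replicate 1 and 0.08 without replicate 2.

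Primed epiblast genes were mostly lower, with 19 of 26 tested called lower, 3 higher and a median log2 fold change of -2.34, which was -3.52 without BV+SC+ replicate 2. *Pou3f1* (Oct6), a POU factor of the epiblast, had 177, 123 and 121 TPM in EpiSCs and 0.4 and 1.5 TPM in BV+SC+ cells (-7.07 ± 0.478, from -8.35 to -6.44 with either BV+SC+ library left out). *Fgf5* fell from 109, 89.3 and 89.2 TPM to 0.45 and 4.09 TPM, with a log2 fold change of -5.26 ± 0.646, which was -4.45 without BV+SC+ replicate 1 and -7.65 without replicate 2. *Sox3* fell from 71.9, 77.8 and 66.3 TPM to 1.47 and 0.61 TPM, and *Zic2*, a zinc finger factor, from 243, 226 and 242 TPM to 15.3 and 16.7 TPM (-3.80 ± 0.136). *Pim2*, a survival kinase and the most abundant of the list, went from 1080, 1090 and 1200 TPM to 15.1 and 10.8 TPM (-6.35 ± 0.173).

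Not every member of the list fell. *Lefty2*, a Nodal inhibitor, rose from 10, 4.55 and 7.54 TPM to 267 and 53.6 TPM, while its neighbour *Lefty1* fell from 517, 408 and 589 TPM to 209 and 69.5 TPM, so the higher value of both was in BV+SC+ replicate 1. The log2 fold change of *Lefty2* was 4.34 ± 0.661, 2.79 without that replicate and 5.06 without replicate 2. *Otx2* was not called: it had 117, 83.8 and 87.4 TPM in EpiSCs and 4.29 and 47.5 TPM in BV+SC+ cells, with a log2 fold change of -1.70 (adjusted p = 0.11) that was -4.62 and called without BV+SC+ replicate 2.

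**Figure D3:**
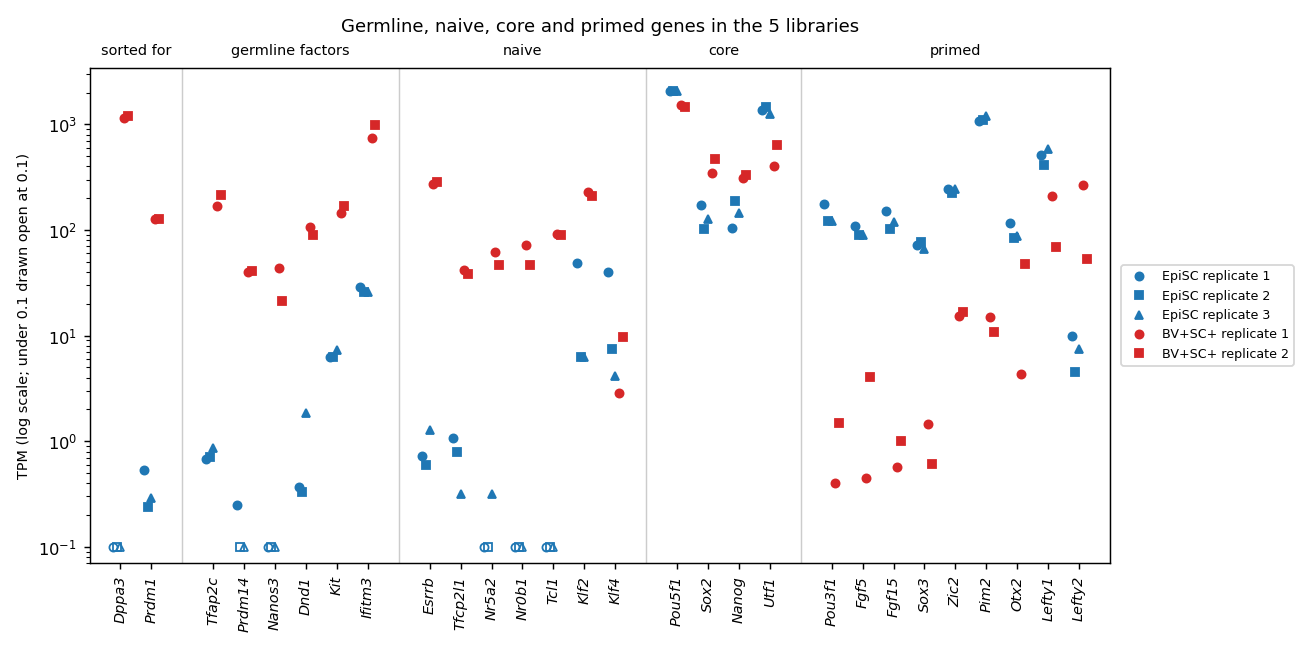
TPM on a log axis for genes of the germline, naive, core and primed lists, 1 marker for each of the 3 EpiSC (blue) and 2 BV+SC+ (red) libraries, with values under 0.1 drawn open at 0.1. Red and blue markers are separated at each gene shown but *Klf4*, and *Otx2* is spread between the BV+SC+ libraries, at 4.29 and 47.5 TPM.

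Early embryonic genes were read only in part. Of 24 such genes 8 passed the filter and were called higher, each with at most 3 counts in every EpiSC library, so that they passed through BV+SC+ cells alone and could differ in this direction only, and 7 had no count at all. The 8 include *Dppa2*, *Dppa3*, *Dppa4*, *Dppa5a*, *Tcl1* and *Ooep*, most of them counted on other lists already. The 2-cell stage genes of the list were hardly read: *Zscan4c* was at 0.28 and 0.15 TPM and *Zscan4f* at 0.71 and 0.86 TPM in BV+SC+ cells. Of the Rhox cluster, X-linked homeobox genes of placenta and germ line, 3 of 34 passed the filter. *Rhox6* was at 224 and 351 TPM and *Rhox9* at 249 and 365 TPM, both listed at 0 in EpiSCs, and so at least 123-fold and 110-fold up, and *Rhox5* went from 2.9, 3.01 and 5.36 TPM to 281 and 770 TPM. Of 39 HOX genes, all under the filter, the levels summed to 2.82 to 3.23 TPM in EpiSCs and to 20.4 and 2.82 TPM in BV+SC+ cells.

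Genes of DNA methylation and demethylation moved both ways, with 9 of 23 higher (39.1%) and 5 lower (21.7%, near the 17.2% of all genes). The de novo methyltransferases of the epiblast fell: *Dnmt3b* went from 679, 731 and 710 TPM to 17.6 and 41.9 TPM (-4.48 ± 0.354, and -5.23 without BV+SC+ replicate 2), and *Dnmt3a* from 106, 115 and 123 TPM to 26.7 and 42.6 TPM (-1.60 ± 0.164). Their catalytically inactive partner *Dnmt3l* was listed at 0 in EpiSCs and at 36.6 and 108 TPM in BV+SC+ cells, at least 57.6-fold higher. *Uhrf1*, which brings the maintenance enzyme to replicated DNA, fell from 219, 233 and 232 TPM to 93.1 and 78.7 TPM (-1.30 ± 0.108), while that enzyme, *Dnmt1*, had a log2 fold change of 0.76 ± 0.0925 and was not called. Among the dioxygenases that oxidise methylcytosine, *Tet2* rose from 1.09, 1.07 and 0.9 TPM to 10.1 and 9.57 TPM (3.34 ± 0.208) and *Tet3* fell from 10, 12.2 and 9.78 TPM to 1.18 and 1.09 TPM (-3.61 ± 0.395, and -4.47 without BV+SC+ replicate 1). *Tet1* had a log2 fold change of 1.15 ± 0.105 that dropped below the threshold after the GC correction and in limma on TPM.

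Of 32 histone methylation genes 5 were higher (15.6%, near the 16.8% of all genes) and 2 lower (6.25%), and the higher count was 9 without BV+SC+ replicate 1. The targets of both inhibitors used in the induction did not pass: *Dot1l* was at 83.5, 63.8 and 59.5 TPM and 66.2 and 65.5 TPM, and *Ezh2* at 164, 147 and 157 TPM and 177 and 187 TPM. Several partners of *Ezh2* in the Polycomb repressive complex rose, *Suz12* from 63.5, 61.9 and 53.3 TPM to 138 and 179 TPM, *Jarid2* by 1.34 ± 0.132 and *Mtf2* by 1.84 ± 0.132, as did *Ezh1* (1.78 ± 0.259). *Kdm3a*, a demethylase of H3K9, rose from 28.1, 33.7 and 30 TPM to 112 and 94.1 TPM. *Kdm6b*, a demethylase of H3K27, fell from 51.5, 56 and 57.5 TPM to 12.5 and 3.81 TPM (-2.74 ± 0.413, -3.74 without BV+SC+ replicate 1 and -2.14 without replicate 2).

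FGF signals reach the nucleus through MEK and ERK, and 12 of 25 targets and feedback inhibitors of that route were lower and 2 higher, with a median log2 fold change of -1.72, and 1 was higher without BV+SC+ replicate 2. *Spred3*, an inhibitor of RAS, fell from 30.8, 23.9 and 23 TPM to 0.34 and 0.46 TPM (-5.88 ± 0.313). *Ccnd1*, the D-type cyclin that growth factors induce, fell from 151, 129 and 143 TPM to 2.59 and 2.99 TPM (-5.57 ± 0.169, with 20.3% of its transcript shared with another gene), and *Myc* from 165, 85.3 and 79 TPM to 3.15 and 5.27 TPM (-4.62 ± 0.431). At *Etv4* and *Spry4*, quick readouts of ERK, the BV+SC+ libraries stood apart from each other. *Etv4* was at 117, 105 and 138 TPM in EpiSCs and 0.05 and 59.5 TPM in BV+SC+ cells. *Spry4* was at 43.1, 14.6 and 15.2 TPM against 0 and 6 TPM. Neither was called. At *Egr1* and *Fos*, members of the same list given below, the BV+SC+ libraries lay close together. *Dusp6*, the ERK phosphatase, was at 444, 204 and 143 TPM in EpiSCs and 7.49 and 35.8 TPM in BV+SC+ cells (-3.52 ± 0.74), which was -2.79 without BV+SC+ replicate 1, -5.09 without replicate 2 and -2.90 without EpiSC replicate 1. *Etv5* was not called, at 205, 206 and 206 TPM and 185 and 373 TPM. The receptor *Fgfr2* rose from 8.53, 2.29 and 2.53 TPM to 49.8 and 59 TPM (3.68 ± 0.378, and 4.43 without EpiSC replicate 1).

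Immediate-early genes, which respond to serum, growth factors and handling within minutes, were lower at 12 of the 20 tested, and higher at 1 (2 without BV+SC+ replicate 1), of a list that also holds heat shock genes. EpiSC replicate 1 stood above the other EpiSC libraries here. *Fos* had 654 TPM in that library, 105 and 98.7 TPM in the others and 15.6 and 20.9 TPM in BV+SC+ cells, and its log2 fold change of -4.36 ± 0.945 was -2.80 without replicate 1. For *Jun* the values were 265, 83.8 and 42.6 TPM and 13.5 and 7.68 TPM (-3.57, and -2.51 without it). *Egr1*, also on the ERK list, had 350, 83.7 and 168 TPM and 3.12 and 3.49 TPM (-5.78 ± 0.634, and -5.11 without it). Leaving out EpiSC replicate 1 left 10 members lower. Of the heat shock members, *Hsph1* was at 101 to 114 TPM and 101 and 77.7 TPM and was not called.

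Of 35 WNT pathway genes 7 were higher (near the share of all genes, 16.8%) and 10 lower (28.6%), and 16 were lower without BV+SC+ replicate 1. Negative feedback targets of beta-catenin rose: *Axin2* went from 4.41, 9.26 and 5.32 TPM to 61.4 and 15.4 TPM (2.84 ± 0.533, 1.59 without BV+SC+ replicate 1 and 3.50 without replicate 2), *Notum* from 0.58, 0 and 1.3 TPM to 51.4 and 23 TPM, and *Sp5* from 0.31, 0 and 0 TPM to 15.1 and 3.36 TPM. All 3 were higher in BV+SC+ replicate 1 than in replicate 2, and 28.6% of the *Notum* transcript is shared with its antisense gene. *Porcn*, the acyltransferase that makes WNT ligands active, rose from 5.02, 4.58 and 3.14 TPM to 102 and 89.5 TPM (4.53 ± 0.22), and the receptor *Ror2* from at most 1.2 TPM to 22.7 and 26.1 TPM. Receptors of the canonical route fell: *Fzd2* from 82.1, 85.4 and 84.1 TPM to 7.09 and 5.07 TPM (-3.71 ± 0.173) and *Lrp5* from 64.3 to 66.8 TPM to 9.59 and 11.9 TPM (-2.54 ± 0.145). *Ctnnb1* itself was at 492 to 552 TPM and 387 and 441 TPM and was not called.

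Of 21 Nodal pathway genes 3 were higher (14.3%) and 5 lower (23.8%), shares near the 16.8% and 17.2% of all genes. *Gdf3*, a ligand of the family, went from 0.91, 0.32 and 0.77 TPM to 88.3 and 56.4 TPM, a ratio of 113 (51.7 to 308), and *Pcsk6*, a convertase that processes Nodal, from 5.43, 6.03 and 8.42 TPM to 45.1 and 22.3 TPM (2.29 ± 0.321). The SMAD2/3 targets *Pmepa1* and *Smad7* fell, the first from 58, 51.9 and 71.5 TPM to 3.34 and 3.54 TPM. The Nodal inhibitors *Lefty1* and *Lefty2*, also on this list, went opposite ways, with log2 fold changes of -1.87 and 4.34. *Nodal* was at 76, 60.5 and 64.4 TPM and 46.6 and 43.5 TPM, and the signal transducers *Smad2*, *Smad3* and *Smad4* were not called. In the BMP pathway 5 of 18 were higher and 5 lower (27.8% each, against 16.8% and 17.2% of all genes). Its targets *Id3* and *Msx2* rose, *Id3* from 28.1, 16.9 and 12 TPM to 72.6 and 62.4 TPM (1.99 ± 0.37, and 2.60 without EpiSC replicate 1) and *Msx2* from 0, 0.27 and 0.33 TPM to 9.07 and 4.78 TPM. The ligand *Bmp7* rose from 1.5, 0.7 and 0.9 TPM to 18 and 10.9 TPM (3.97 ± 0.413), and the type I receptor *Bmpr1b* fell. The median log2 fold change of the BMP list was -0.32. Of its 15 tested members on no other list, 3 were higher, *Id3* and *Bmp7* among them, and 5 lower. The ID genes of the list were therefore not all called higher. Lower calls in this pathway were less steady, 2 without EpiSC replicate 1 or BV+SC+ replicate 2 and 3 without EpiSC replicate 2.

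Receptors of LIF rose together, *Lifr* from 2.38, 3.02 and 2.92 TPM to 16.7 and 18.2 TPM (3.03 ± 0.219) and its partner *Il6st* (gp130) from 11.6, 11.5 and 10.9 TPM to 42.5 and 42.7 TPM (2.07 ± 0.116), with no overlap. The inhibitor *Socs3* was at 51, 14.2 and 13.2 TPM in EpiSCs and 2.28 and 10.8 TPM in BV+SC+ cells and did not pass. Over the whole LIF-STAT3 list, 5 of 17 were higher (29.4%) and 1 lower (5.88%), against 16.8% and 17.2% of all genes. Its median log2 fold change of 0.17 was -0.5 without BV+SC+ replicate 2. Of 12 retinoic acid pathway genes, 4 were higher and 4 lower (33.3% each). *Aldh1a2*, which makes retinoic acid, was listed at 0 in EpiSCs and at 6.37 and 11.9 TPM in BV+SC+ cells, and the binding protein *Crabp1* rose from 11.2, 11.6 and 5.06 TPM to 172 and 116 TPM (3.97 ± 0.329). *Rxrg*, a retinoid receptor, fell from 8.77, 10.6 and 12.3 TPM to 0 and 0.13 TPM.

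**Figure D4:**
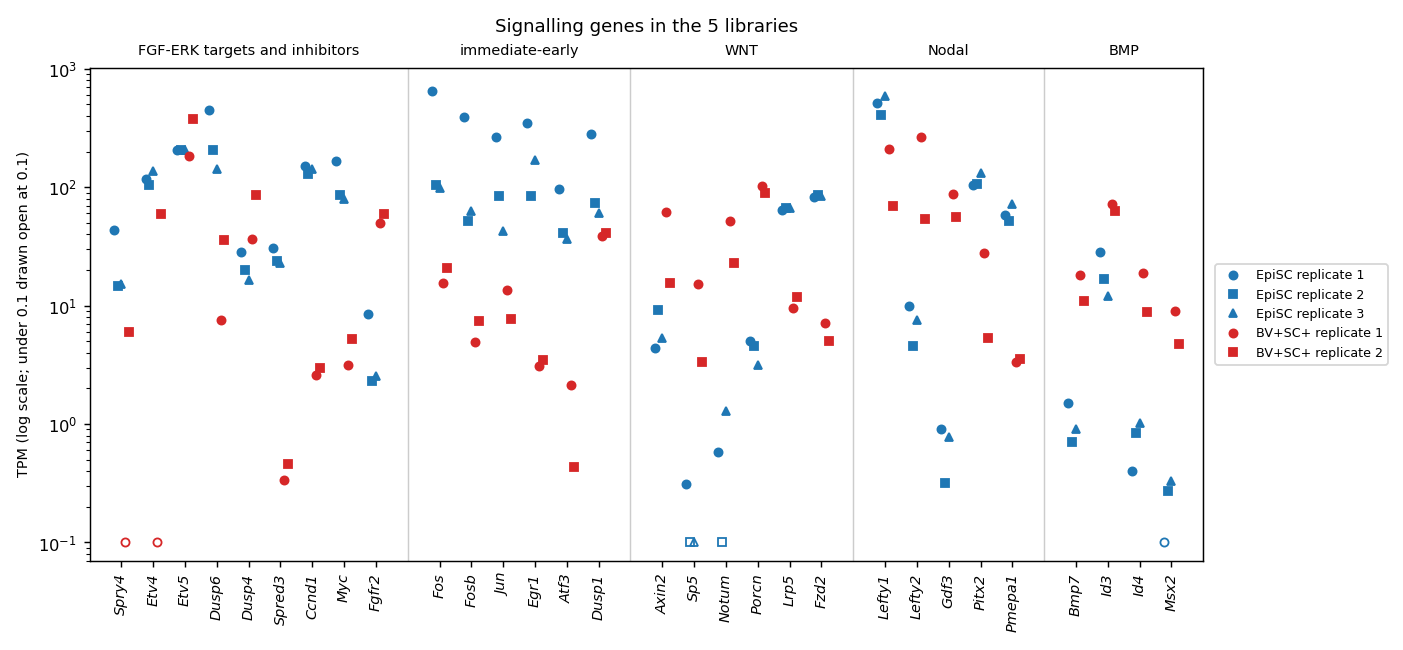
TPM on a log axis for signalling genes, 1 marker for each of the 3 EpiSC (blue) and 2 BV+SC+ (red) libraries, with values under 0.1 drawn open at 0.1. EpiSC replicate 1 (blue circle) is the highest library at each of the 6 immediate-early genes, with 654 TPM at *Fos*, and the red markers part widely at *Etv4*, 0.05 and 59.5 TPM.

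Metabolic lists leaned to lower expression, apart from the respiratory chain. The amino acid response, through which ATF4 raises amino acid import and synthesis, was lower at 24 of 29 and higher at 1, with a median of -1.89, which was -1.28 without BV+SC+ replicate 2. *Slc7a3*, a cationic amino acid transporter, fell from 536, 566 and 558 TPM to 30.2 and 38 TPM (-3.86 ± 0.153), and *Slc7a5*, the carrier of leucine, from 857, 1060 and 856 TPM to 168 and 201 TPM (-2.25 ± 0.141). The serine synthesis enzymes *Phgdh* (-2.51 ± 0.142), *Psat1* (-1.54 ± 0.18) and *Psph* (-2.07 ± 0.163) fell, as did *Mthfd2* of mitochondrial one-carbon metabolism (-2.63 ± 0.199) and *Atf4* (-1.33 ± 0.145). *Shmt1*, the cytosolic counterpart of the enzymes of the mitochondrial route, rose by 1.16 ± 0.105. *Asns*, a target of ATF4 too, was at 432, 572 and 443 TPM in EpiSCs and on both sides of them in BV+SC+ cells, at 903 and 315 TPM.

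Cholesterol synthesis genes were lower at 15 of 24, with 1 higher and a median of -1.19. *Cyp51*, a sterol demethylase, fell from 147, 123 and 113 TPM to 39.6 and 27.8 TPM (-1.85 ± 0.188), and *Pmvk*, a kinase of the mevalonate route, from 155, 147 and 149 TPM to 48.9 and 38.8 TPM (-1.88 ± 0.155). BV+SC+ replicate 2 lay below replicate 1 in both. Without replicate 2, 11 genes were lower.

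Glycolysis genes were lower at 12 of 28 (42.9%, against 17.2% of all genes) and higher at 5 (17.9%, near the 16.8% of all genes). Their median of -0.92 was -0.64 without BV+SC+ replicate 1 and -1.2 without replicate 2. Members that are isoforms of one enzyme moved apart. *Ldha*, the lactate dehydrogenase subunit of glycolytic cells, fell from 1690, 1910 and 1950 TPM to 162 and 271 TPM (-3.01 ± 0.228), and *Ldhb*, the subunit of oxidative tissues, rose from 85.8, 96.3 and 73.1 TPM to 453 and 916 TPM (3.08 ± 0.29, and 2.45 without BV+SC+ replicate 2). *Pfkp*, a platelet-type phosphofructokinase, rose from 27.9, 29.4 and 27.6 TPM to 181 and 301 TPM (3.03 ± 0.22). *Slc16a3*, the exporter of lactate, fell (-2.65 ± 0.289, and -3.24 without BV+SC+ replicate 2). *Gapdh* was at 11000 to 11400 TPM in EpiSCs and 7970 and 8940 TPM in BV+SC+ cells, a log2 fold change of -0.95 just under the threshold. In the respiratory chain, by contrast, 8 of 87 subunits were higher (9.2%, against 16.8% of all genes) and none lower (1 without BV+SC+ replicate 1), with a median of 0.27. The 8 include *Cox7a1*, the heart and muscle form, which went from 13, 17.9 and 5.09 TPM to 106 and 119 TPM (3.09 ± 0.487), and *Uqcrb* (1.75 ± 0.163).

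**Figure D5:**
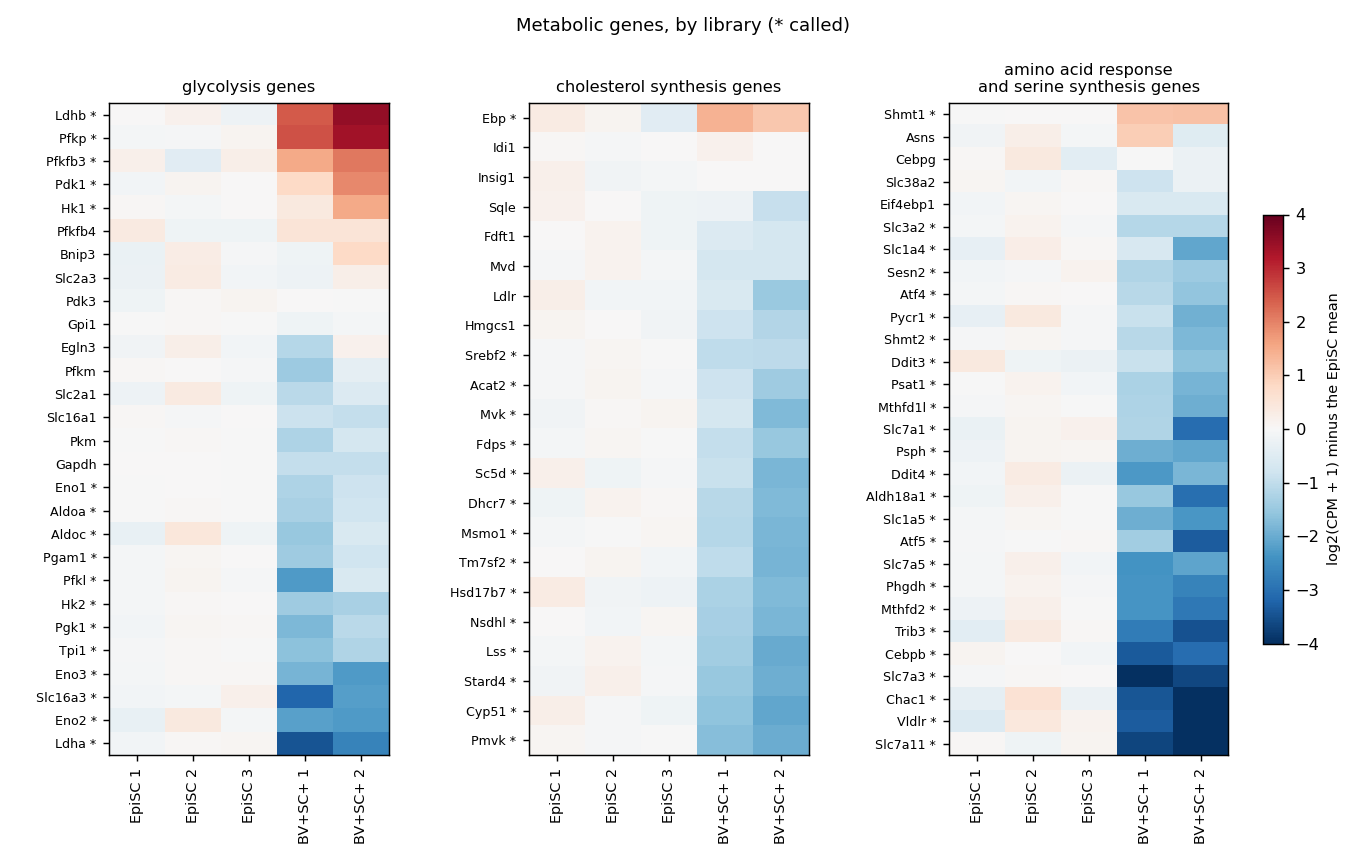
Heat maps of tested glycolysis, cholesterol synthesis and amino acid response genes in the 5 libraries. Colour gives log2(CPM + 1) minus the mean of the 3 EpiSC libraries (red higher, blue lower) and an asterisk a called gene. Blue columns of both BV+SC+ libraries run through most amino acid response and cholesterol synthesis genes, with *Ldhb* and *Pfkp* among the red rows of the glycolysis panel.

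Adhesion genes moved in both directions on the epithelial and the mesenchymal list. Of 25 epithelial genes tested 10 were higher (40%) and 3 lower (12%), against 16.8% and 17.2% of all genes, and 6 were higher without EpiSC replicate 2. *Dsg2*, a desmosomal cadherin, rose from 1.45, 1.3 and 0.92 TPM to 17.8 and 17.5 TPM (4.69 ± 0.275), *Cldn4* from at most 1.14 TPM to 24.3 and 30.8 TPM, and *St14*, the protease matriptase, from 1.9, 2.97 and 1.2 TPM to 22.6 TPM in both. Its inhibitor *Spint1* fell from 46.9, 49 and 47.8 TPM to 5.49 and 6.8 TPM (-2.90 ± 0.188). *Cdh1* (E-cadherin) was at 71.4 to 103 TPM and 67.5 and 70.7 TPM and was not called. Of 24 mesenchymal and migration genes 12 were lower (50%) and 6 higher (25%). The actin regulators *Cald1* (-2.27 ± 0.151) and *Tpm2* (-2.50 ± 0.227) fell, while *Fn1* (fibronectin) rose from 68.4, 68.7 and 64.3 TPM to 618 and 415 TPM (3.06 ± 0.173). The paralogous matricellular genes *Ccn1* and *Ccn2* went opposite ways, *Ccn1* from 242, 219 and 157 TPM to 7.96 and 18.3 TPM and *Ccn2* from 0.53, 0.43 and 0.67 TPM to 23.4 and 36.1 TPM. Collagens were split, 6 higher and 6 lower of 15, and so were laminins, 3 higher and 2 lower of 7 (1 lower without EpiSC replicate 2 or BV+SC+ replicate 2), with *Lama5*, the chain of the epiblast basement membrane, falling from 206, 200 and 211 TPM to 50.7 and 21.1 TPM (-2.67 ± 0.289, and -3.30 without BV+SC+ replicate 1).

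Antigen presentation and interferon genes moved both ways, 10 higher and 5 lower of 20. RNA sensors and antiviral genes rose: *Trim25*, which activates RIG-I, was listed at 0 in EpiSCs and at 48.8 and 77.6 TPM in BV+SC+ cells, at least 180-fold higher, and *Ddx58* (RIG-I) went from 1.11, 0.18 and 0.22 TPM to 37.7 and 42.9 TPM, a ratio of 215 (73.6 to 1040). *Bst2* (tetherin) rose from 27.2, 37.3 and 43.3 TPM to 119 and 341 TPM. Genes that load peptides on class I molecules fell, *Tap1* from 7.95, 12.9 and 11.7 TPM to 1.11 and 1.34 TPM (-2.81 ± 0.374), with the class I gene *H2-D1* (-1.61 ± 0.203) and the immunoproteasome subunit *Psmb9* (-2.65 ± 0.556).

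Imprinted genes split evenly, 12 higher (31.6%) and 11 lower (28.9%) of 38, with a median of -0.03. Of all genes, 16.8% were higher and 17.2% lower. Noncoding transcripts of the Dlk1-Dio3 cluster fell: *Meg3* from 84.8, 57.6 and 61.4 TPM to 6.4 and 0.55 TPM, *Rian* from 122, 118 and 131 TPM to 12 and 1.88 TPM, and *Mirg* from 26.9, 17.1 and 7.78 TPM to 0.86 and 0 TPM. All 3 were lower in BV+SC+ replicate 2 than in replicate 1, and the log2 fold change of *Rian*, -4.26 ± 0.519, was -5.67 without replicate 1 and -3.53 without replicate 2. On the other side, *Igf2*, a fetal growth factor, rose from 24.9, 21.9 and 23.4 TPM to 170 and 75.9 TPM (2.93 ± 0.306, and 2.28 without BV+SC+ replicate 1), and *H19*, beside it, from 0, 0.37 and 1.23 TPM to 5.48 and 22.6 TPM. *Gnas* fell from 1000, 1130 and 1100 TPM to 182 and 128 TPM (-2.74 ± 0.158) and *Grb10* from 231, 262 and 251 TPM to 47.4 and 10.9 TPM. The value of *Snurf*, at 335 to 682 TPM in EpiSCs and 0 in BV+SC+ cells, is uncertain, since its whole transcript is shared with *Snrpn*, which fell from 714 to 731 TPM to 93.3 and 164 TPM. Of a short list of Y-linked genes with *Xist*, 6 Y-linked members were tested, 3 were higher and none lower, and with the GC correction 2 were higher and 1 lower.

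Cell cycle genes were mostly alike, with 2 of 27 higher (7.41%) and 4 lower (14.8%), against 16.8% and 17.2% of all genes. Without EpiSC replicate 1 or 2, 1 was higher. The median log2 fold change of 0.09 was -0.07 without BV+SC+ replicate 1. *Mki67* was at 90 to 102 TPM and 101 and 131 TPM and *Pcna* at 329 to 343 TPM and 261 and 211 TPM, and neither was called. Beside *Ccnd1*, its kinase *Cdk6* fell from 44.5, 52.9 and 47.5 TPM to 17.9 and 13.1 TPM (-1.66 ± 0.179). *Cdkn1c* (p57), an imprinted inhibitor, went from 1.39, 0 and 0 TPM to 11.1 and 15.7 TPM. Of 20 p53 targets 8 were lower and 1 higher, among them the death genes *Pmaip1* (Noxa), from 106, 82.9 and 85.7 TPM to 6.75 and 20 TPM, and *Bbc3* (Puma), from 99.8, 84 and 65.7 TPM to 12.9 and 25.8 TPM, which was not called after the GC correction. Without BV+SC+ replicate 1 the higher targets were 3, and without replicate 2 there were 0. *Cdkn1a* and *Mdm2* were not called.

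Lists of other cell types were examined for cells the sort or the cultures could hold. Of 35 primitive streak and mesoderm genes 9 were tested, 4 higher and 2 lower, and 4 were lower without BV+SC+ replicate 1 and 1 without any EpiSC library in turn. *Meis2* had no count in EpiSCs and 50.3 and 7.22 TPM in BV+SC+ cells, so the value of replicate 1 stood above that of replicate 2. The list summed to 51.9 to 75.9 TPM in EpiSCs and to 171 and 65.5 TPM in BV+SC+ cells. Trophoblast genes were higher at 12 and lower at 2 of 16 tested (of 30), but 9 of the 16 are on other lists too, *Tfap2c*, *Rhox6* and *Rhox9* among them. In 6 of the 16 no EpiSC library had more than 3 counts, so these could differ upward only, and with at least 10 counts asked of every library 3 of 7 were higher and 2 lower. The 7 on no other list, with 4 higher and 2 lower, include *Gata2*, from at most 0.41 TPM to 15.2 and 4.16 TPM, and *Elf3*, from 1.04, 3.59 and 1.74 TPM to 88.9 and 65 TPM. The whole list summed to 150 to 165 TPM in EpiSCs and to 1040 and 1130 TPM in BV+SC+ cells. Its members on no other list summed to 103 to 122 TPM and to 192 and 119 TPM. Some members were low: *Cdx2* was at 4.77 and 0.37 TPM and *Elf5* at 0.31 and 0.28 TPM in BV+SC+ cells. *Tpbpa*, *Prl3d1* and *Prl2c2* were listed at 0 in all 5 libraries. How far other cells contribute to these values was not tested.

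Neural genes were mostly lower, 9 of 16 tested (56.2%), with 3 higher (18.8%, near the 16.8% of all genes). The list summed to 643 to 657 TPM in EpiSCs and 214 and 156 TPM in BV+SC+ cells. *Nes* (nestin) fell from 165, 166 and 142 TPM to 19 and 4.91 TPM and *Msi1* from 90.6, 97 and 103 TPM to 7.87 and 5.83 TPM, while the neurogenic factor *Neurog2* was listed at 0 in every library. Of 25 endoderm genes 8 were tested, 1 higher and 2 lower, with 2 higher without EpiSC replicate 1 or BV+SC+ replicate 2 and 1 lower without EpiSC replicate 2 or BV+SC+ replicate 2. *Sox17*, *Foxa2* and *Gata6* were under 1 TPM in all libraries, and the list summed to 225 to 239 TPM and to 294 and 276 TPM. Fibroblast genes (4 of 17 tested) showed 1 lower, *Thy1*, from 18.8, 28.3 and 22.7 TPM to 0.38 and 0.19 TPM, and summed to 47.6 to 63.5 TPM and to 12.5 and 33.3 TPM, and 3 were lower without BV+SC+ replicate 2. Blood and endothelial genes (3 of 15 tested) showed *Pecam1* higher and *Runx1* lower, with 2 higher without BV+SC+ replicate 1. Their sum, 15.9 to 20.2 TPM in EpiSCs and 124 and 169 TPM in BV+SC+ cells, was 8.97 and 24.7 TPM in BV+SC+ cells without *Pecam1*, and *Ptprc*, *Spi1* and *Gata1* were under 1 TPM in all libraries.

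Ordered by the lowest library of the higher group over the highest of the lower, the largest increases, of which 14 of 15 are given, were *Tdh*, *Dppa5a*, *Dppa3*, *Ifitm1*, *Esrrb*, *Tfap2c*, *Dppa4*, *Pecam1*, *Prdm1*, *Trim25*, *Tdrd12*, *Ap3b2*, *Zfp42* and *Dazl*, of 1764 eligible genes. Outside the lists, *Ap3b2*, a subunit of the adaptor complex best known in neurons, rose from 2.43, 2.41 and 3.12 TPM to 207 and 166 TPM (7.13 ± 0.213). The 15 largest decreases, of 1726, were *Ncan*, *Slitrk5*, *Vgf*, *Rtn4rl2*, *Fgf15*, *Tmem229a*, *Kif1a*, *Kcnj3*, *Calcr*, *Pou3f1*, *Klhl4*, *Fam131b*, *Pim2*, *Lor* and *Cdh22*. *Ncan*, a proteoglycan of brain matrix, fell from 14.8, 21.8 and 18.4 TPM to 0.06 and 0.11 TPM (-7.57 ± 0.326), *Kif1a*, a motor of axonal transport, from 86.1, 101 and 96.4 TPM to 1.26 and 0.29 TPM, and *Kcnj3*, a potassium channel that shares 28.7% of its transcript with another gene, from 118, 134 and 113 TPM to 0.68 and 1.08 TPM. *Fgf15*, a target of FGF and of neural patterning, fell from 151, 103 and 120 TPM to 0.57 and 1 TPM (-7.17 ± 0.321). *Calcr*, the calcitonin receptor, fell from 72.3, 61.9 and 68.6 TPM to 0.83 and 0.16 TPM.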

How the data were processed

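Bulk RNA-seq of 5 samples was used. Per the labels and the methods, the authors made strand-specific paired libraries, ran RSEM 1.3.1 on Bowtie2 alignments to mm10 for gene totals, and deposited expected counts and TPM values per library without pooling. The labels describe rRNA-depleted RNA and the methods an mRNA kit, and the strand setting of the counting is not given in the sources used here, so reads of a gene and an antisense or overlapping gene cannot be told apart. TPM, as deposited, is relative to each library's total. Deposited FPKM values were not used.

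Expected counts were rounded and tested on all genes with edgeR 4.0.16 (filterByExpr, TMM, quasi-likelihood) in R 4.3.3, with Benjamini-Hochberg adjustment, from 29267 genes listed to 11792 tested. The test was run on simulated data first. Symbols came from GENCODE M21 (98.25% matched), while the methods name another release. Shared sequence means the share of a transcript's 75-base words found in other genes. Named are the 4 given markers, members of fixed lists, families by symbol and the 15 largest changes each way, by the lowest library of the higher group over the highest of the lower, each library of the lower group at no less than 3 counts, among called genes with a mean of at least 5 TPM. Members and lists were chosen with earlier results of these data known. Alternatives were DESeq2 1.42.0, RLE scaling, other filters, thinned counts, a GC offset, a replicate block, protein-coding genes only, limma 3.58.1 on log2(TPM + 1), an unadjusted threshold and leaving out each library. Precision is limited by the EpiSC depth, where 3 counts are 0.99 to 1.23 CPM against 0.17 and 0.198 CPM in the BV+SC+ libraries. Some genes that the naming rule gives are not reported here.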

Additional observations from a re-analysis of the deposited data

How the results depend on the processing

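The filter on low counts moved the results most. With at least 10 counts asked of every library, 10054 genes were tested, 1164 were higher and 1608 lower, and 75 list members were higher in place of 187, since genes unread in EpiSCs dropped out by construction. The median of the germline specification list was then -0.81 in place of 4.60, and that of the streak and mesoderm list -1.24 in place of 1.03. With genes at 0 or near it in EpiSCs at their bound or pooled ratio, the medians of the germline specification, germline and meiosis, naive and early embryonic lists were 2.84, 4.60, 5.68 and 7.63 in place of 4.60, 7.15, 7.38 and 10.34. Without a filter 19598 genes were tested and 2825 were higher. Over all 16 alternatives the medians of 12 of 36 lists changed sign at least once. Leaving out 1 library at a time gave 2081 to 2257 higher and 1864 to 2393 lower genes, and 179 to 199 and 157 to 191 list members. Deviations of libraries with the same number were nearly uncorrelated (r = -0.0349 and 0.00367). The deviations of the 2 BV+SC+ libraries mirror each other and hold any difference of medium. These values therefore cannot show whether a number pairs libraries. A fit with the replicate block gave 1872 higher and 1958 lower genes. Of 166 called genes named here, 162 kept direction and call in each alternative that tested them, though with at least 10 counts in every library only 118 of the 195 named and tested genes were left. The others were *Tcf7l1* and *Bbc3* with the GC offset, *Tet1* with it and with limma, and *Mt1* without EpiSC replicate 2. Uncalled genes that changed sign were *Klf4* (-2.69 to 0.45 with 1 library left out), *Stat3* (-1.06 to 0.46), *Asns* (-0.49 without BV+SC+ replicate 1), *Cdkn1a* (-0.44 to 0.75), *Epcam* (-0.11 to 0.42), *Etv5* (-0.15 to 0.96), and *Dot1l* (-0.05) and *Tdrd7* (-0.27) in limma. The cause was not tested. Depth limits EpiSCs most, and genes at 0 there may be expressed under 0.99 to 1.23 CPM.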

Other observations

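The following genes and families were chosen after their values were seen, and they are given as values only. *Apoe*, the lipid carrier apolipoprotein E, stood at 139, 159 and 172 TPM in EpiSCs and at 3700 and 2190 TPM in BV+SC+ cells, a log2 fold change of 3.76 ± 0.207. The metallothioneins *Mt1* and *Mt2*, which bind zinc and copper, had 92.1 to 195 TPM and 41 to 121 TPM in EpiSCs, and 1350 and 2650 TPM in BV+SC+ replicate 1 against 253 and 479 TPM in replicate 2. *Fasn*, the fatty acid synthase, fell from 1030, 939 and 1130 TPM to 205 and 128 TPM (-2.58 ± 0.181). *Actg1*, cytoplasmic actin, fell from 5100, 5430 and 5190 TPM to 1900 and 1940 TPM.

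Of 9 Platr transcripts, noncoding RNAs named for their link to pluripotency, 8 were higher and none was lower (median log2 fold change 3.63). Among 13 semaphorins, guidance molecules, 1 was higher and 9 were lower (median -2.74). Of 10 Lrp receptors none was higher and 8 were lower (median -2.23), and of 339 Zfp genes 88 were higher and 28 lower (median 0.39). Of 114 lincRNAs tested 45 were higher (39.5%) and 14 lower (12.3%). For all these families, the shares over all genes tested were 16.8% higher and 17.2% lower.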
